A study of Homo sapiens with 15 samples.

Results

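WT HT1080 cells kept for 14 days on either of the lysine deacetylase (KDAC) inhibitors Tubastatin A and PCI-34051 were compared directly. HT1080 is a human fibrosarcoma line, a tumour line of connective tissue, and WT here means that its deacetylase genes were not edited. The study used inhibitors beside HT1080 lines with an inactivated KDAC6 or KDAC8, and measured RNA by sequencing in 15 libraries from 5 groups of 3 biological replicates. The comparison described here holds the 6 libraries of WT cells, 3 grown with 5 μM PCI-34051 and 3 grown with 1 μM Tubastatin A, and they were chosen by their labels as the groups that share line and duration. The other 9 libraries come from edited lines treated for 2 days. The lines KDAC6 H216A (6CD1m) and KDAC6 H611A (6CD2m) were grown with 1 μM Tubastatin A. The line KDAC8 H143A (8CDm) was grown with 5 μM PCI-34051. Both groups are of the same parental line, so that nothing here speaks for other cells, and the dose differs together with the inhibitor. Untreated WT cells are not analysed here, so every difference is that of one inhibitor against the other, and a gene higher with Tubastatin A may have been raised by it or lowered by PCI-34051.

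KDACs are metal-dependent enzymes that remove acetyl groups from lysines of histones and of many other proteins. KDAC6 (gene HDAC6) acts mainly in the cytosol and is best known for removing acetyl groups from α-tubulin, while KDAC8 (gene HDAC8) acts on SMC3, a subunit of the cohesin ring that holds sister chromatids together. Tubastatin A was developed as an inhibitor of KDAC6 and PCI-34051 as one of KDAC8, and both bind at the metal ion of the active site. Deacetylases in the nucleus work in corepressor complexes that keep chromatin of silent genes deacetylated, among them genes of the neuronal programme.

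The 6 libraries held 15213299 to 19983741 counts on genes (median 16416356), and values are given below as CPM, counts scaled to a common library size, always in the order of replicates 1, 2 and 3. CPM is not divided by the length of a gene and is compared between libraries only, not between genes. Differences are log2 fold changes of Tubastatin A over PCI-34051 with their standard error (SE), from edgeR's quasi-likelihood test with the replicate number as a block, and a gene was called at a Benjamini-Hochberg adjusted p below 0.05. A gene said to be higher or lower by an amount was called, and the amount is on the log2 scale. Of 17263 genes tested, 6964 were called (40.3%), 3813 of them higher with Tubastatin A (22.1%) and 3151 lower (18.3%). At the study's false discovery rate of 0.001 there were 2015 calls (11.7%), of which 1201 were higher (6.96%) and 814 lower (4.72%). The 3 PCI-34051 libraries lay fully above or fully below the 3 Tubastatin A libraries for 4866 genes (28.2%). Both libraries numbered 1 stood apart from the others, and without the block the same test called 303 genes, 208 higher (1.20%) and 95 lower (0.550%), all of them among the 6964. In a fit of all 15 libraries without the block, 1151 of 19535 genes were higher (5.89%) and 700 lower (3.58%). Without replicate 1, 2 or 3, in this order, 3340, 3120 and 2910 genes were higher and 2818, 2481 and 2265 lower. These were of 17681, 17561 and 17524 tested, and counts of a list without a replicate are to be read beside them. List counts without the block or in the 15-library fit are given below for some lists only. A list without such counts did not thereby keep its calls. Without the block, for instance, no lysine acetyltransferase stayed called, and of the solute carriers only 3 stayed higher and 1 lower.

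The difference between the inhibitors followed the GC content of the genes in each replicate pair. Spearman's rho across genes between GC content and log2 fold change was −0.452, and it was −0.345, −0.484 and −0.363 in replicate pairs 1, 2 and 3. With genes cut into 5 groups of equal size by GC content, the group of lowest content had a median log2 fold change of 0.27 and the group of highest content a median of −0.29, against −0.0056 over all genes tested. Genes are not independent replicates, so these values are a description. The whole comparison was therefore also fitted with offsets that remove each library's own curve against GC content, after which rho was −0.0204. With the offsets 5729 of 17143 genes were called (33.4%), 3401 higher (19.8%) and 2328 lower (13.6%), and 4294 of these calls were shared with the main fit. The share of small structural RNA was 5.63, 9.07 and 7.86% of counts with PCI-34051 and 4.44, 5.55 and 6.30% with Tubastatin A, and its part in the differences was not tested.

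**Figure D1:**
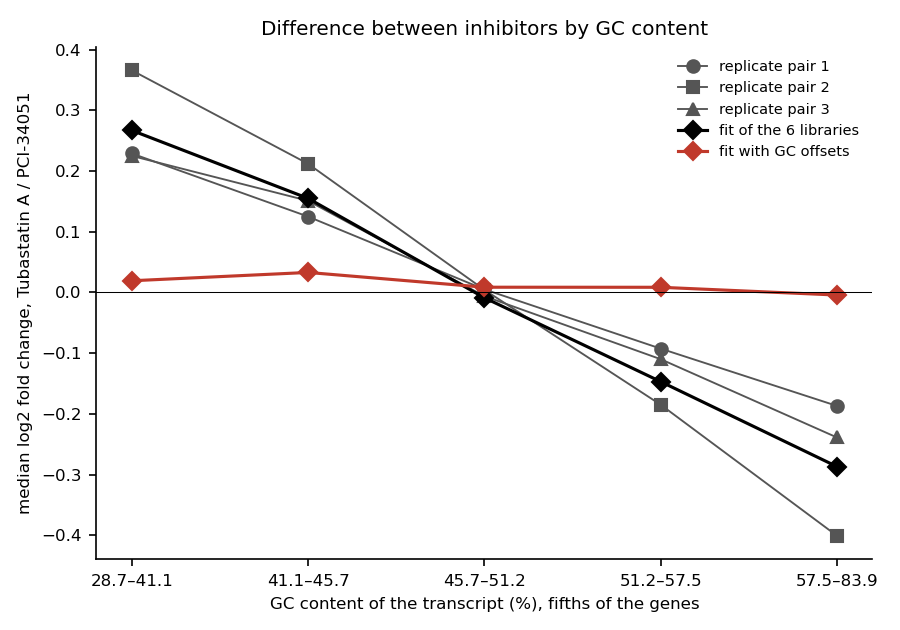
Median log2 fold change of Tubastatin A over PCI-34051 (vertical axis) in 5 equal groups of genes by the GC content of their transcripts in percent (horizontal axis). Grey lines show the 3 replicate pairs, black the fit of the 6 libraries and red the fit with GC offsets. All 3 pairs run from positive at low GC content to negative at high GC content, from 0.27 to −0.29 in the fit, and the offsets leave a nearly flat line.

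Markers of connective tissue cells were present in all 6 libraries. VIM, the intermediate filament of mesenchymal cells, had 4420.1, 3820.3 and 3922 CPM with PCI-34051 and 4763, 4327 and 4433 CPM with Tubastatin A. FN1 (fibronectin) and SPARC were also high, and 13 of 17 mesenchymal markers passed the filter on low counts, although COL1A2 and THY1 stayed under 2 CPM and LUM and DCN did not pass. Of the epithelial markers 5 of 14 passed, with KRT8 at 210.1, 189.9 and 193 CPM with PCI-34051 and 201, 197 and 206 CPM with Tubastatin A and without EPCAM and CDH1, and of the endothelial and leukocyte markers 5 of 10 and 3 of 10 passed. No summed level of these lists separated the groups, with epithelial markers at 420.5, 384 and 378 CPM with PCI-34051 and 399, 376 and 398 CPM with Tubastatin A and leukocyte markers at 115, 71.9 and 92.5 CPM with PCI-34051 and 115, 88.8 and 104 CPM with Tubastatin A.

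The targets of the inhibitors came first. Of the 11 metal-dependent deacetylase genes, 3 were higher with Tubastatin A (HDAC1, HDAC2 and HDAC9) and 3 lower (HDAC4, HDAC7 and HDAC10), against 22.1 and 18.3% of all genes. HDAC6 RNA had 26.4, 34.8 and 30.2 CPM with PCI-34051 and 27.4, 22.96 and 24.9 CPM with Tubastatin A, a log2 fold change of −0.27 ± 0.11 that did not pass (edgeR adjusted p = 0.078). The groups overlap because replicate 1 of the Tubastatin A group lies among the PCI-34051 libraries, and without replicate 1 the log2 fold change was −0.43 (edgeR adjusted p = 0.0119), while GC offsets took it to −0.081. HDAC8 RNA was close in all libraries, with 15.2, 16.5 and 14.7 CPM with PCI-34051 and 15.5, 15.3 and 17.6 CPM with Tubastatin A (log2 fold change 0.061, 95% interval −0.19 to 0.31, edgeR adjusted p = 0.698, and −0.14 with GC offsets).

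HDAC2, a class I enzyme of the Sin3, NuRD and CoREST complexes, had 79.2, 50.3 and 53.4 CPM with PCI-34051 and 114, 76.4 and 78.9 CPM with Tubastatin A. Each pair was higher with Tubastatin A, although the groups overlap across pairs (log2 fold change 0.56 ± 0.06, edgeR adjusted p = 6.11e-05). HDAC10, which deacetylates polyamines, had 26.8, 62.9 and 55.6 CPM with PCI-34051 and 20.3, 26.3 and 28.8 CPM with Tubastatin A. It was lower in every pair (log2 fold change −0.88 ± 0.13, edgeR adjusted p = 0.000246), by the smallest amount in pair 1. The class IIa genes HDAC4 and HDAC7 were lower by 0.50 and 0.47 on the log2 scale, and HDAC4 libraries did not overlap. These calls held with GC offsets, at 0.31 for HDAC2, −0.50 for HDAC10, −0.33 for HDAC4 and −0.25 for HDAC7. Without the block none of the 4 passed (edgeR adjusted p = 0.167, 0.12, 0.145 and 0.13 in this order). In the 15-library fit without the block no deacetylase gene of the list passed either. HDAC9 (log2 fold change 0.20) was at −0.007 with the offsets and lost its call whichever replicate was left out. HDAC1 (0.22) lost its call without replicate 2 (0.14, edgeR adjusted p = 0.111). HDAC3, HDAC5 and HDAC11 did not pass, with log2 fold changes of 0.061, −0.11 and 0.12.

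**Figure D2:**
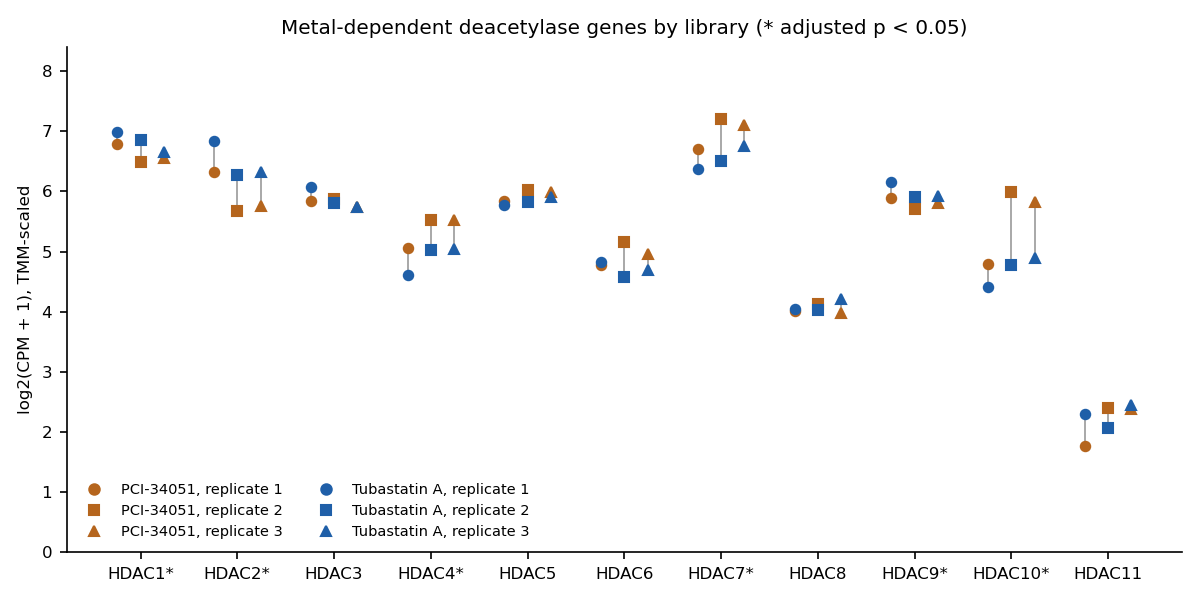
Levels of the 11 metal-dependent deacetylase genes in each library as log2(CPM + 1), with PCI-34051 in brown, Tubastatin A in blue, shapes for replicates and grey lines joining libraries of the same number. HDAC2 is higher and HDAC4, HDAC7 and HDAC10 are lower with Tubastatin A in all 3 pairs, while the HDAC8 libraries of both groups lie together.

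Sirtuins, the NAD-dependent deacetylases, included no higher gene and 3 lower ones of 6 tested (median log2 fold change −0.24). With GC offsets 2 were lower and the median was −0.031, and without the block none was called. SIRT7, a nucleolar enzyme, had 28.0, 47.6 and 42.0 CPM with PCI-34051 and 20.7, 25.6 and 25.5 CPM with Tubastatin A with no overlap (log2 fold change −0.69 ± 0.10, edgeR adjusted p = 0.000218). The mitochondrial SIRT3 was lower by 0.51. SIRT2, the cytosolic tubulin deacetylase, was lower by 0.26 but stood at −0.007 with GC offsets. Among 15 lysine acetyltransferases 3 were higher and 6 lower, and 3 were lower without replicate 1, without replicate 3 or with GC offsets. KAT2A (GCN5) had 116, 192 and 176 CPM with PCI-34051 and 77.6, 99.5 and 100.2 CPM with Tubastatin A and was lower by 0.78 without overlap. HAT1, which acetylates newly made histone H4, was higher (0.68 ± 0.10), as was ESCO2, which acetylates SMC3 during replication (0.84 ± 0.13). CREBBP was lower by 0.28, a call that GC offsets ended (−0.095, edgeR adjusted p = 0.242). In the class I deacetylase complexes 4 of 26 genes were higher and 7 lower, but 6 and 4 with GC offsets, with the NuRD subunits MTA1 and CHD3 lower by 0.52 and 0.38, SIN3B lower by 0.52 and KDM1A, the CoREST demethylase, higher by 0.38.

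On the higher side, several of the genes that differed most are known from neurons. NOVA2, a neuronal splicing regulator, had 1.65, 1.86 and 2.13 CPM with PCI-34051 and 9.54, 15.01 and 15.7 CPM with Tubastatin A (log2 fold change 2.80 ± 0.18, edgeR adjusted p = 1.62e-06). KIF5C, a kinesin heavy chain of neurons, had 13.6, 11.96 and 12.002 CPM with PCI-34051 and 59.7, 55.1 and 53.01 CPM with Tubastatin A, which is 4.47-fold (log2 fold change 2.16 ± 0.08, edgeR adjusted p = 5.55e-08). VAT1L had 14.4, 11.9 and 11.5 CPM with PCI-34051 and 64.3, 52.6 and 52.0 CPM with Tubastatin A. In all 3 genes each Tubastatin A library exceeded each PCI-34051 library by more than 3-fold, and the spread within a group was small beside that gap. The neuronal adhesion gene CNTN1 had 2.27, 0.450 and 0.516 CPM with PCI-34051 and 8.30, 6.30 and 5.98 CPM with Tubastatin A, and the secreted neuronal factor NELL2 had 8.201, 5.21 and 6.71 CPM with PCI-34051 and 29.2, 27.7 and 24.2 CPM with Tubastatin A. CES1, a carboxylesterase, ITGB2, an integrin chain of leukocytes, OTULINL and EFR3B were under 2 CPM in all PCI-34051 libraries and at 2.48 to 6.68 CPM with Tubastatin A. The serpin SERPINB7 had 5.36, 3.92 and 3.48 CPM with PCI-34051 and 24.8, 16.8 and 12.99 CPM with Tubastatin A (log2 fold change 2.08 ± 0.14). All 10 calls held with GC offsets, and 8 of them held without the block, where CNTN1 and EFR3B had edgeR adjusted p of 0.0549 and 0.0606.

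On the lower side, the genes that differed most were of low level. PTGS2 (COX-2), the inducible enzyme of prostaglandin synthesis, had 13.8, 6.62 and 8.90 CPM with PCI-34051 and 3.72, 2.54 and 3.11 CPM with Tubastatin A (log2 fold change −1.62 ± 0.18, edgeR adjusted p = 4.16e-05). The rule that chose these 10 genes took only genes whose groups do not overlap, so that trait is no result for any of them. Among these 10, PTGS2 and TBC1D3D were called without the block. AMIGO3, a neuronal adhesion gene, had 0.928, 6.36 and 4.07 CPM with PCI-34051 and 0, 0 and 0.847 CPM with Tubastatin A, so its fitted log2 fold change of −3.78 ± 0.68 depends on 2 libraries without a read. RHBDL1, a rhomboid-like protein, had 3.04, 10.6 and 8.07 CPM with PCI-34051 and 1.13, 1.91 and 1.86 CPM with Tubastatin A, and CDRT4 had 11.2, 11.3 and 13.5 CPM with PCI-34051 and 2.86, 1.27 and 6.10 CPM with Tubastatin A. TLCD2 and the unnamed coding genes ENSG00000250644 and ENSG00000258790 were lower by 1.48, 1.85 and 1.46 on the log2 scale. TBC1D3D, GTF2IRD2 and SLX1B (−2.02, −1.57 and −1.51) have near-identical copies in the genome among which reads can be divided differently, so their values are uncertain.

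**Figure D3:**
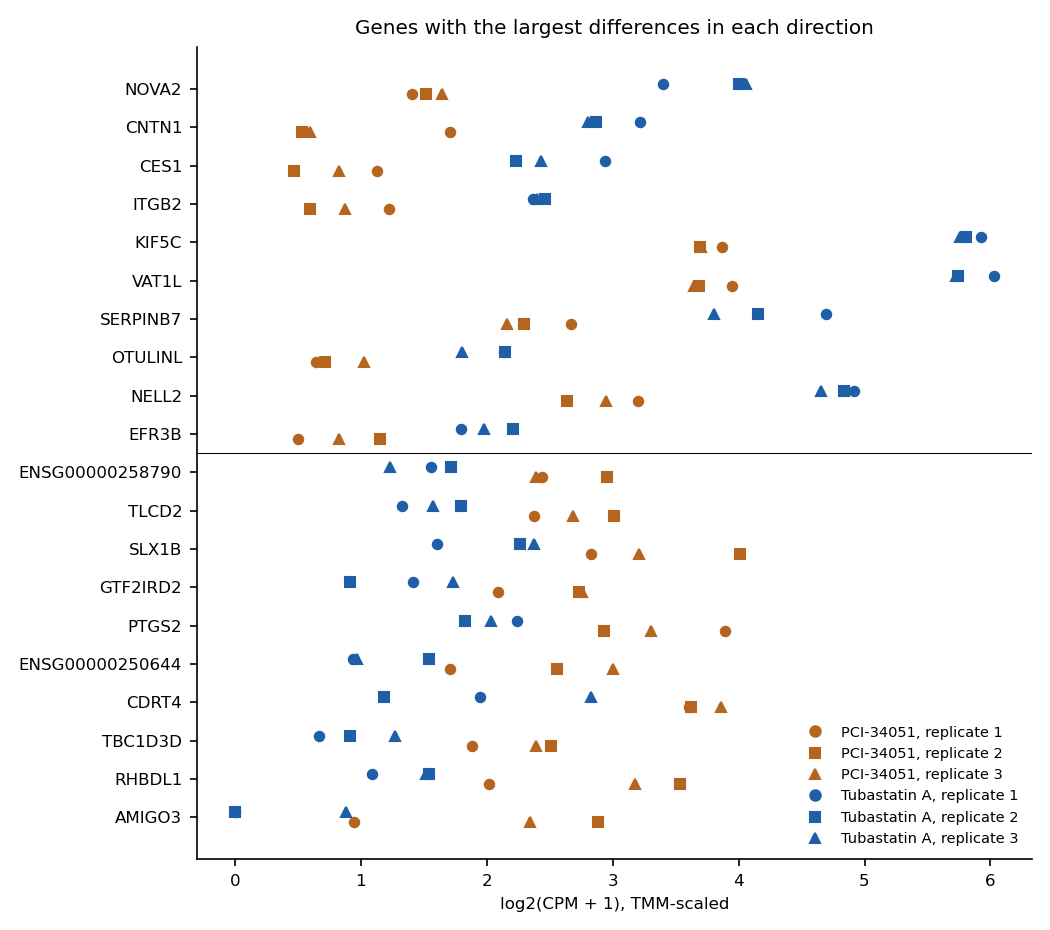
The 10 protein-coding genes that differed most upwards and the 10 that differed most downwards, among called genes of at least 1 average log2 CPM whose libraries do not overlap, as log2(CPM + 1) per library (horizontal axis), PCI-34051 in brown, Tubastatin A in blue and shapes for replicates. Above the line Tubastatin A lies to the right of PCI-34051, with KIF5C and VAT1L furthest above the level of single reads, and below the line it lies to the left, at levels mostly under 4 on this scale.

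Beyond single genes, gene lists of pathways, families and complexes were counted. Lists for cell division, histones, DNA replication, neuronal genes, tubulins and cholesterol synthesis had most of their members higher with Tubastatin A. Lists with more lower than higher members included cadherins, collagens, HOX genes, lysine acetyltransferases, p53 targets, TGF-β genes and ATF4 targets. With GC offsets some of them no longer leaned to the lower side. Lysine acetyltransferases then had 3 higher and 3 lower, collagens 5 and 5 and ATF4 targets 8 and 6. Counts with the offsets for the rest are given below.

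**Figure D4:**
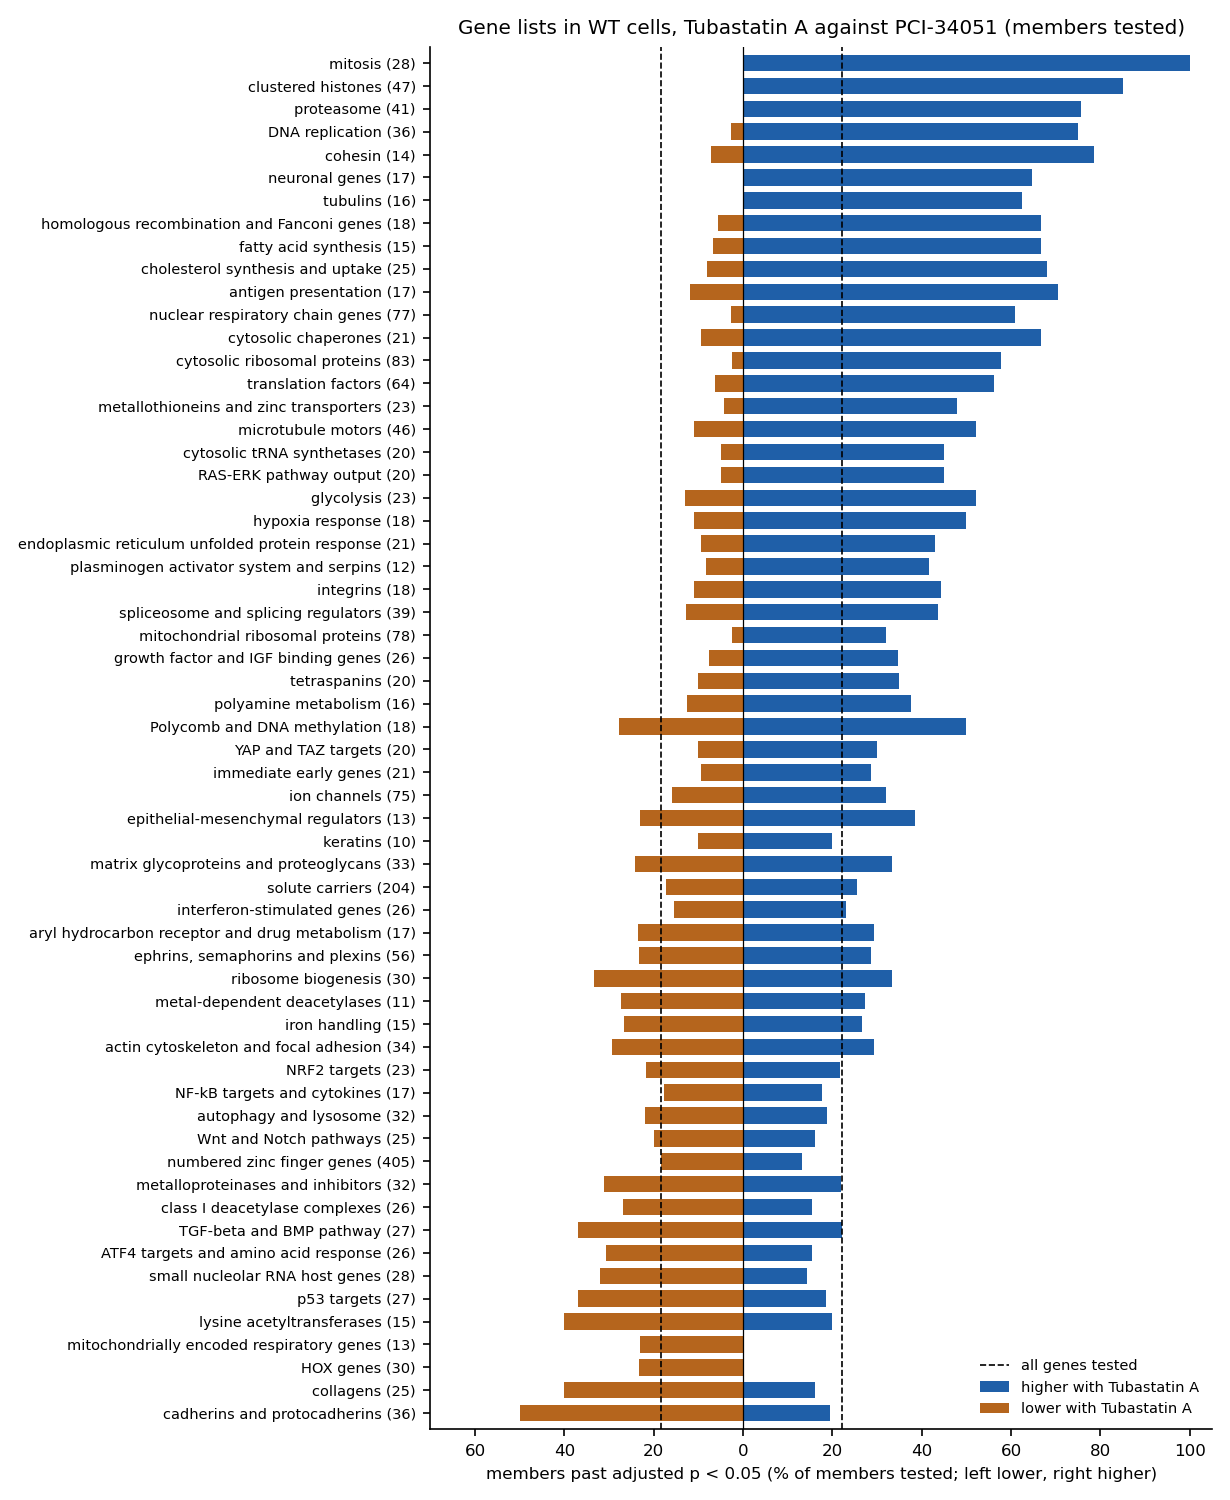
Share of the tested members of each list that were called higher with Tubastatin A (blue, to the right) or lower (brown, to the left), in percent, for lists of at least 10 tested members, with the number tested in parentheses. Dashed lines mark the shares over all genes tested, 22.1% higher and 18.3% lower. All 28 mitosis genes and 40 of 47 histone genes are higher, while among these lists cadherins and protocadherins have the largest share of lower members.

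Genes of cell division were higher with Tubastatin A throughout. All 28 mitosis genes were called higher, 23 of them at 0.001, with log2 fold changes from 0.20 to 1.01 and a median of 0.57. Their summed level was 2641, 2132 and 2086 CPM with PCI-34051 and 3778, 3179 and 3210.0 CPM with Tubastatin A. MAD2L1, which holds the spindle checkpoint, had 37.7, 23.9 and 21.2 CPM with PCI-34051 and 72.03, 50.6 and 43.5 CPM with Tubastatin A (log2 fold change 1.01 ± 0.08, edgeR adjusted p = 5.69e-06). PRC1, which bundles microtubules of the central spindle, had 124, 101.2 and 96.5 CPM with PCI-34051 and 199.5, 164 and 161 CPM with Tubastatin A. TOP2A, the topoisomerase that untangles sister chromatids, had 232, 140.1 and 149 CPM with PCI-34051 and 366, 282 and 266 CPM with Tubastatin A. The groups do not overlap for any of the 3, nor for the checkpoint kinase BUB1 (0.75 ± 0.07). With GC offsets all 28 stayed higher (median 0.49), in the 15-library fit without the block 20 did, and without the block in the 6 libraries 4 did. In bulk RNA a larger share of dividing cells and more RNA of these genes per dividing cell cannot be told apart.

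DNA replication genes leaned the same way, with 27 of 36 higher, 1 lower and a median of 0.51 (31 higher and 1 lower with GC offsets, 20 higher in the 15-library fit, 2 without the block). RRM2 and RRM1 are the subunits of ribonucleotide reductase, which makes deoxynucleotides. RRM2 had 64.8, 48.1 and 50.3 CPM with PCI-34051 and 128, 100.2 and 100.9 CPM with Tubastatin A (log2 fold change 1.01 ± 0.06, edgeR adjusted p = 1.62e-06) and RRM1 had 104.8, 69.9 and 70.5 CPM with PCI-34051 and 169, 124 and 114 CPM with Tubastatin A. TYMS, which makes thymidylate, and FEN1, the flap nuclease of lagging-strand synthesis, were higher by 0.66 and 0.61, all without overlap. The lower member was the origin recognition subunit ORC6, a gene singled out after its value was seen, with 59.8, 85.4 and 81.8 CPM with PCI-34051 and 49.8, 75.3 and 65.7 CPM with Tubastatin A. Homologous recombination and Fanconi genes had 12 of 18 higher and 1 lower, led by BRCA2 (0.82 ± 0.08), FANCI (0.67), BARD1 (0.77) and the helicase BLM (0.77), and 8 were higher with GC offsets, 5 in the 15-library fit and 2 without the block.

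Among microtubule motors 24 of 46 were higher and 5 lower (23 and 3 with GC offsets, 15 and 1 in the 15-library fit, 3 and 0 without the block). Besides KIF5C, the mitotic kinesins KIF20B, KIF14 and KIF11 led, with 44.4, 29.1 and 34.1 CPM with PCI-34051 and 68.4, 53.9 and 54.1 CPM with Tubastatin A for KIF11 (log2 fold change 0.72 ± 0.08). In the cohesin list, which holds the ring, its loaders and its regulators, 11 of 14 genes were higher and 1 lower. SMC3, the known substrate of KDAC8, had 59.4, 39.9 and 45.3 CPM with PCI-34051 and 85.3, 77.7 and 63.2 CPM with Tubastatin A (log2 fold change 0.65 ± 0.09, edgeR adjusted p = 0.000204). RAD21, the subunit cut by separase, PTTG1 (securin) and PDS5B were higher by 0.63, 0.68 and 0.54. The call list shrank to 8 higher with GC offsets and to 4 in the 15-library fit, with none left without the block, and none of the 4 named genes lost its call with the offsets.

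**Figure D5:**
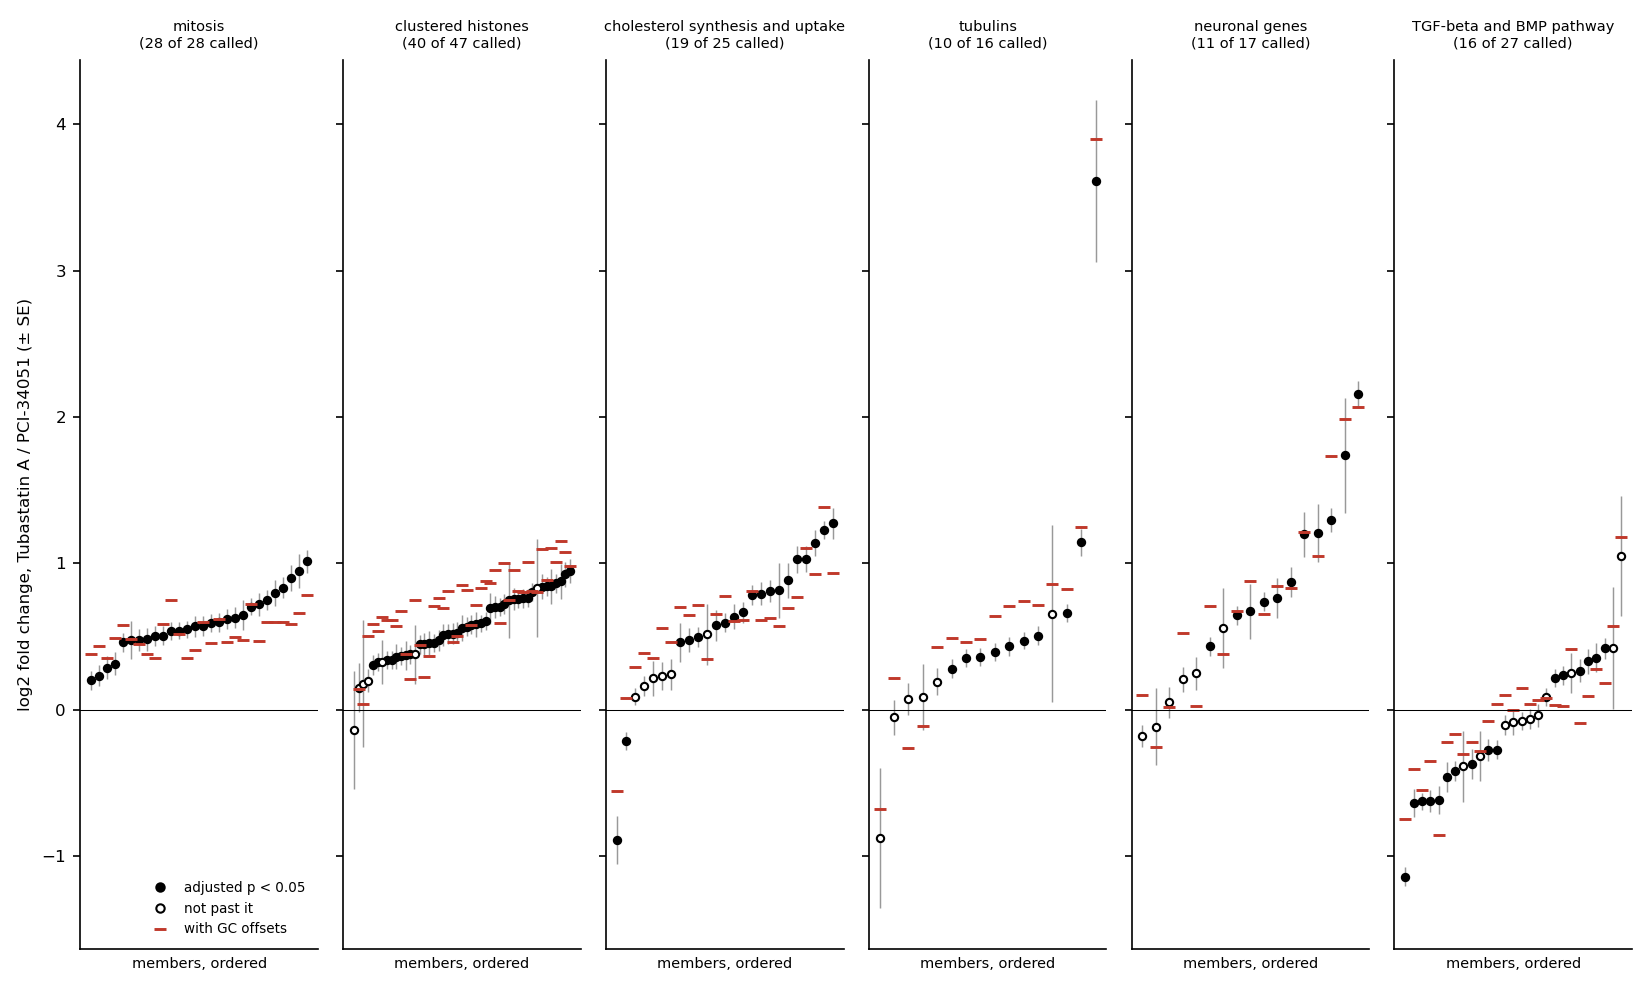
Log2 fold change of Tubastatin A over PCI-34051 ± SE (vertical axis) for each tested member of 6 lists, ordered by value; filled points passed an adjusted p of 0.05, open points did not, and red bars give the value with GC offsets. All mitosis genes and nearly all histone genes lie above 0 with and without the offsets, tubulins and histones move up with them, and several TGF-β genes move towards 0. The topmost tubulin is TUBB4A, which stayed under 2 CPM.

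Clustered histone genes, which are expressed in S phase and whose transcripts end in a stem loop in place of a poly(A) tail, were kept in these libraries because RNA was depleted of rRNA and not selected for poly(A). Of 47 tested genes 40 were higher and none lower (33 higher at 0.001), with a median of 0.56, and 43 of 46 were higher with GC offsets. Their summed level was 5038, 4283 and 4328 CPM with PCI-34051 and 7191, 6202 and 6523 CPM with Tubastatin A, so that no PCI-34051 library reached a Tubastatin A library. In the 15-library fit 30 were higher and without the block 11. All 5 classes took part, with 2 of 2 H1, 11 of 13 H2A, 11 of 14 H2B, 7 of 8 H3 and 9 of 10 H4 genes higher. H2BC11 had 104.5, 76.4 and 74.8 CPM with PCI-34051 and 179, 145 and 133 CPM with Tubastatin A (log2 fold change 0.84 ± 0.06, edgeR adjusted p = 4.95e-06). H4C2 had 128, 127 and 119.8 CPM with PCI-34051 and 253, 228 and 203 CPM with Tubastatin A, H4C14 had 316, 271 and 287 CPM with PCI-34051 and 585, 488 and 460.2 CPM with Tubastatin A and H3C10 had 149.9, 125 and 121 CPM with PCI-34051 and 245, 202 and 223 CPM with Tubastatin A, with log2 fold changes of 0.87, 0.80 and 0.76. Members of a class have near-identical coding sequences, so that reads may be divided among copies and the class sums are firmer than single genes. H4 genes summed to 853.7, 714.5 and 744.1 CPM with PCI-34051 and to 1444, 1242 and 1188 CPM with Tubastatin A.

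Since histone genes moved together, their promoters are shown. The octamer ATTTGCAT, bound by OCT1 in H2B promoters, was found on either strand in 9 of 13 H2B promoters (250 bases before the start), in 8 of 25 promoters of other tested histone genes and in 1.66% of 27305 RefSeq promoters. The letters CCAAT were found in 13 of 13, in 18 of 25 and in 33.0% respectively. The following windows come from RefSeq on GRCh38.p14, both on the minus strand, H2BC11 at chr6:27132796-27133045 and H2BC8 at chr6:26216689-26216938, with the octamer in capitals.
H2BC11: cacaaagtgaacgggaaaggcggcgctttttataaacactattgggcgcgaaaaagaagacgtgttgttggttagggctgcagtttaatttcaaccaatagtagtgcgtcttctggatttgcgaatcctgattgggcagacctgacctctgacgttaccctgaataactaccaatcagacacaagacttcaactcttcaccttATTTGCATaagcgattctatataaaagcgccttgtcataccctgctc
H2BC8: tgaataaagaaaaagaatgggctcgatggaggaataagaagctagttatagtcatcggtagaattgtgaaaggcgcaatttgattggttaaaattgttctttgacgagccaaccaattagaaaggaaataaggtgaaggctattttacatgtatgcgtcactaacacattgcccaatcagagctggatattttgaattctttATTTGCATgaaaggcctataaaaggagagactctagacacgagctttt
In both the octamer begins within 50 bases before the start, at 47 and 48 bases. For mitosis genes the letters TTTGAA, as in the cell cycle homology region, stood in 11 of 22 promoters against 13.6% of all, and CCAAT in 19 of 22. The windows of PRC1 (chr15:90994536-90994785) and TOP2A (chr17:40417897-40418146), both on the minus strand of the same build, are shown with TTTGAA or its reverse complement in capitals.
PRC1: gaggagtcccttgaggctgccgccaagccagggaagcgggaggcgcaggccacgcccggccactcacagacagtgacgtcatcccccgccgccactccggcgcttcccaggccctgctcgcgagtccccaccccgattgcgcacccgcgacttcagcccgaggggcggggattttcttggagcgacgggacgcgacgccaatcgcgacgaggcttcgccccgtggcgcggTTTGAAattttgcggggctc
TOP2A: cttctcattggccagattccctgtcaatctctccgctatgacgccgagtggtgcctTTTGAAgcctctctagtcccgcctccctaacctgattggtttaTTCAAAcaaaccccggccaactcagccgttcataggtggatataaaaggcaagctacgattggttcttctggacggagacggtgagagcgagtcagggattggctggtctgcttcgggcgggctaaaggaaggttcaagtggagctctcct
PRC1 holds the letters 20 bases before the start and TOP2A holds them at 194 and, reversed, at 151 bases. The E2F letters TTTCGCGC stood in 3 and TTTGGCGC in 5 of 32 promoters of replication genes, against 0.469 and 0.553% of all. A match of letters is a description of the window, not a sign that a factor bound there.

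Tubulin genes, whose proteins carry the acetyl mark that KDAC6 removes, had 10 of 16 higher and none lower (11 higher with GC offsets, 6 in the 15-library fit, 2 without the block). Their sum was 4843, 3889 and 4022 CPM with PCI-34051 and 6409, 5467 and 5589 CPM with Tubastatin A. TUBA1A had 44.6, 26.0 and 27.0 CPM with PCI-34051 and 81.7, 65.8 and 64.5 CPM with Tubastatin A (log2 fold change 1.14 ± 0.09, edgeR adjusted p = 8.25e-06), and TUBA1B, another α-tubulin gene, had 1246, 969 and 966 CPM with PCI-34051 and 1899, 1565 and 1552 CPM with Tubastatin A. TUBB6 and TUBA4A were higher by 0.47 and 0.51. Each of the 4 was without overlap, though α-tubulin paralogues are similar in sequence.

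Neuronal genes, typical targets of silencing by REST and its deacetylase corepressors outside the nervous system, had 11 of 17 higher and none lower, with a median of 0.67 (with GC offsets 12 were higher and the median was 0.71). Without the block 5 stayed called and in the 15-library fit 10. VGF, a secreted neuropeptide precursor, had 18.3, 20.7 and 22.8 CPM with PCI-34051 and 43.9, 48.3 and 60.1 CPM with Tubastatin A (2.46-fold, edgeR adjusted p = 1.62e-06). MAP1B, a microtubule-associated protein of growing axons, had 506, 365 and 401 CPM with PCI-34051 and 790.0, 664 and 656 CPM with Tubastatin A. NCAM1, a neural cell adhesion molecule, had 103, 97.1 and 95.3 CPM with PCI-34051 and 165, 139 and 159 CPM with Tubastatin A. Sums over the list were 929.7, 795 and 841 CPM with PCI-34051 and 1429, 1266 and 1304 CPM with Tubastatin A and did not overlap. Of the 39 genes of the list 22 were too low to be tested. The highest log2 fold change in the list, 2.16, equals that given above for KIF5C. The list was chosen with earlier results of these data known, so its counts are not separate support for the neuronal genes named above.

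Cholesterol synthesis and uptake had 17 of 25 genes higher and 2 lower (median 0.59), and 22 higher and 1 lower with GC offsets. In the 15-library fit 13 were higher and without the block 6. HMGCS1, which makes HMG-CoA, had 27.2, 17.4 and 16.8 CPM with PCI-34051 and 53.8, 40.8 and 39.7 CPM with Tubastatin A (log2 fold change 1.14 ± 0.09, edgeR adjusted p = 6.09e-06). The sterol carrier STARD4 had 18.1, 11.3 and 10.9 CPM with PCI-34051 and 38.1, 30.0 and 28.4 CPM with Tubastatin A and the acetoacetyl-CoA thiolase ACAT2 had 22.4, 17.7 and 15.6 CPM with PCI-34051 and 44.6, 34.2 and 34.8 CPM with Tubastatin A. Tubastatin A lay above PCI-34051 in all libraries of these 3 genes. Named after their values were seen, the 2 lower genes were TM7SF2 (−0.89) and the sterol sensor SCAP (−0.21, 0.082 with GC offsets). Fatty acid synthesis had 10 of 15 genes higher and 1 lower, with 2 higher in the 15-library fit and none without the block. The acyl-CoA ligases ACSL4 and ACSL3 were higher by 0.74 and 0.67 and the desaturase FADS2 by 0.56, while SREBF1, the transcription factor of lipid synthesis, was the lower one, with 66.3, 88.4 and 87.4 CPM with PCI-34051 and 49.9, 56.2 and 61.7 CPM with Tubastatin A.

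Other metabolic lists leaned the same way by smaller amounts. In glycolysis 12 of 23 genes were higher and 3 lower, 16 were higher and none lower with GC offsets, and 6 were higher in the 15-library fit and none without the block. PGAM1 had 335, 242 and 270.0 CPM with PCI-34051 and 494, 414 and 391 CPM with Tubastatin A (log2 fold change 0.62 ± 0.07), and LDHB, PGK1 and the lactate transporter SLC16A1 were higher by 0.65, 0.55 and 0.58. Nuclear respiratory chain genes had 47 of 77 higher and 2 lower (51 and 2 with the offsets), but 3 higher in the 15-library fit and none without the block, with COX7A2, CYCS (cytochrome c), NDUFA4 and ATP5MC3 higher by 0.76, 0.69, 0.60 and 0.51. The 13 mitochondrially encoded respiratory genes all had negative log2 fold changes, where 49.6% of all genes had positive ones, and 3 passed and 7 did with GC offsets. MT-ND6 had 234, 321 and 247 CPM with PCI-34051 and 147, 226 and 227 CPM with Tubastatin A (log2 fold change −0.43 ± 0.09) and MT-ATP8 and MT-ND5 were lower by 0.53 and 0.36. The median of this list was −0.60 in pair 1, −0.33 in pair 2 and 0.28 in pair 3, so the pairs did not move alike, and 10 genes were lower without replicate 3. MT-ND5 lost its call without replicate 1 (−0.19, edgeR adjusted p = 0.136). MT-RNR2, the large mitochondrial rRNA, had 3.97, 5.53 and 5.03 CPM with PCI-34051 and 1.51, 1.65 and 3.27 CPM with Tubastatin A after rRNA depletion.

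Protein synthesis and breakdown gave many small positive differences, most of which did not pass without the block. The proteasome had 31 of 41 genes higher and none lower (27 higher with GC offsets), with a median of 0.31, but 3 in the 15-library fit and 0 without the block. PSMD2, a subunit of the regulatory particle, had 698, 561 and 563 CPM with PCI-34051 and 983, 868 and 793 CPM with Tubastatin A without overlap. PSMD1 and PSMA2 were higher by 0.60 and 0.65, and PSMD14 (0.50) lost its call with GC offsets (0.12). Of 83 cytosolic ribosomal protein genes 48 were higher and 2 lower (44 and 0 with the offsets). Their median was 0.22, it was 0.07, 0.34 and 0.19 in pairs 1, 2 and 3, and 26 were higher without replicate 3 and none in the 15-library fit or without the block. RPL41, RPS26, RPL39 and RPS23 led with log2 fold changes of 0.55, 0.52, 0.46 and 0.48, and their libraries overlap between groups.

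Translation factors had 36 of 64 higher and 4 lower (4 higher in the 15-library fit, none without the block), led by EIF3M, EIF1AX, EIF2A and EIF5A2 (log2 fold changes 0.51 to 0.72). Mitochondrial ribosomal proteins had 25 of 78 higher and 2 lower, but 13 higher without replicate 2, 16 without replicate 3, 1 in the 15-library fit and none without the block. MRPL3, MRPL13 and MRPL22 were higher by 0.51, 0.70 and 0.58, and MRPS25 was lower by 0.43. Cytosolic tRNA synthetases had 9 of 20 higher and 1 lower, none higher in the 15-library fit or without the block (FARSB, RARS1, NARS1 and EPRS1 at 0.58, 0.42, 0.35 and 0.37). Cytosolic chaperones had 14 of 21 higher and 2 lower, with 767, 472 and 519 CPM with PCI-34051 and 1046, 811 and 734 CPM with Tubastatin A for HSP90AA1, the inducible HSP90, from which KDAC6 removes acetyl groups. TCP1 and CCT2 of the tubulin-folding chaperonin were higher by 0.50 and 0.44, and HSPH1 by 0.38. The endoplasmic reticulum unfolded protein response had 9 of 21 higher and 2 lower (HSP90B1 0.61, PDIA6 0.52, PDIA3 0.39 and MANF 0.48). Neither chaperone list had more than 1 higher member in the 15-library fit, or any without the block.

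Spliceosome genes had 17 of 39 higher and 5 lower, with 8 higher without replicate 3, 3 in the 15-library fit and none without the block, with the Sm proteins SNRPD2, SNRPE, SNRPG and SNRPD1 at 0.44 to 0.56. Ribosome biogenesis was even, with 10 of 30 in each direction, but with GC offsets 7 were higher and 1 lower, and without replicate 3 the counts were 6 and 4. LYAR, DKC1 and NOLC1 were higher by 0.66, 0.40 and 0.35 and RRP12 was lower by 0.39. Small nucleolar RNA host genes had 4 of 28 higher (SNHG5 0.51, SNHG6 0.65) and 9 lower (SNHG17 −0.47, SNHG4 −0.53), and 5 were lower without replicate 3. ATF4 targets had 4 of 26 higher and 8 lower (8 and 6 with GC offsets). Among them ASNS, asparagine synthetase, and VLDLR were higher by 0.50 and 0.60, and CEBPB and STC2 were lower by 0.62 and 0.48.

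RNA of ferritin and of haem oxygenase was lower while that of the transferrin receptor was higher. TFRC, the receptor through which cells take up iron, had 445, 256 and 260.4 CPM with PCI-34051 and 771, 559 and 509 CPM with Tubastatin A (log2 fold change 0.96 ± 0.07, edgeR adjusted p = 4.6e-06). The ferritin light chain FTL had 1313, 1166 and 1316 CPM with PCI-34051 and 742, 787 and 919 CPM with Tubastatin A and the heavy chain FTH1 had 488, 297 and 365 CPM with PCI-34051 and 277, 217 and 229.7 CPM with Tubastatin A. HMOX1, which frees iron from haem, had 28.0, 22.4 and 29.8 CPM with PCI-34051 and 15.9, 12.3 and 15.6 CPM with Tubastatin A, and none of the 4 genes overlapped between groups. In the whole list 4 of 15 genes were higher and 4 lower (2 and 4 without replicate 3, 3 and 5 with GC offsets). NRF2 targets were balanced (5 higher and 5 lower of 23, 3 and 7 with GC offsets), but those of smallest p were lower, and without replicate 2 none was higher and 8 were lower. The exporter ABCC3 had 88.3, 110.2 and 116 CPM with PCI-34051 and 38.1, 48.6 and 52.5 CPM with Tubastatin A (log2 fold change −1.18 ± 0.07, edgeR adjusted p = 7.23e-07). TKT of the pentose phosphate pathway and OSGIN1 were lower by 0.50 and 0.85.

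SQSTM1 (p62), the autophagy receptor that binds ubiquitin and is also an NRF2 target, had 1492, 1300.0 and 1489.6 CPM with PCI-34051 and 878, 827 and 856 CPM with Tubastatin A (log2 fold change −0.74 ± 0.06, edgeR adjusted p = 8.84e-06). In the autophagy and lysosome list 6 of 32 were higher and 7 lower (3 and 8 without replicate 2, 4 and 4 without replicate 3, 8 and 3 with GC offsets). CTSD and ULK1 were lower by 0.55 and 0.60 and ATG5 was higher by 0.54. Aryl hydrocarbon receptor and drug metabolism genes had 5 of 17 higher and 4 lower. ALDH1A3, which makes retinoic acid, had 70.9, 54.1 and 67.7 CPM with PCI-34051 and 37.7, 33.3 and 31.1 CPM with Tubastatin A, AHRR and EPHX1 were lower by 0.76 and 0.86, and TIPARP was higher by 0.52. Metallothioneins and zinc transporters had 11 of 23 higher and 1 lower, and 6 higher without replicate 3. The zinc importers SLC39A10, SLC39A8 and SLC39A6 were higher by 0.76, 0.75 and 0.45 and SLC30A9 by 0.42. Polyamine genes, of interest because HDAC10 acts on polyamines, had 6 of 16 higher and 2 lower. SMOX, spermine oxidase, had 82.3, 99.6 and 90.7 CPM with PCI-34051 and 53.8, 54.9 and 65.4 CPM with Tubastatin A, AMD1 and AZIN1 were higher by 0.59 and 0.36, and ATP13A3 (0.39) lost its call with GC offsets (0.11).

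Single cytokine genes differed in both directions. Of 17 tested NF-κB targets and cytokines 3 were higher and 3 lower, 17.6% each, near the 22.1 and 18.3% of all genes. All 6 passed at 0.001, and counts were the same with GC offsets and 3 and 5 without replicate 2. LIF had 83.3, 109 and 99.2 CPM with PCI-34051 and 42.2, 56.3 and 57.9 CPM with Tubastatin A and CSF1, the macrophage growth factor, had 276, 259 and 277 CPM with PCI-34051 and 127, 143.3 and 160.2 CPM with Tubastatin A, both lower without overlap. CXCL8 (interleukin 8) had 6.14, 7.84 and 5.42 CPM with PCI-34051 and 24.5, 19.0 and 18.1 CPM with Tubastatin A (log2 fold change 1.67 ± 0.15, edgeR adjusted p = 1.32e-05), whereas PTGS2, above, was lower. These 4 genes were also called without the block. Antigen presentation had 12 of 17 higher and 2 lower, and 7 higher without replicate 3. CD274 (PD-L1) had 12.4, 11.8 and 13.5 CPM with PCI-34051 and 34.8, 30.1 and 25.1 CPM with Tubastatin A and HLA-B had 21.0, 16.4 and 16.8 CPM with PCI-34051 and 35.7, 30.6 and 33.0 CPM with Tubastatin A, while ERAP2 was higher by 0.47 and the class I activator NLRC5 was lower by 0.56. Reads of HLA-B may be shared with other class I genes. Interferon-stimulated genes had 6 of 26 higher and 4 lower (1 and 2 without replicate 1, 6 and 2 with GC offsets). Their shares, 23.1 and 15.4%, were near those of all genes. OAS3 was at 0.87 ± 0.09, STAT2 at −0.36, and USP18 at 1.34, which lost its call without replicate 1 (edgeR adjusted p = 0.0572). IRF7 was at −1.34, with 2.53, 11.3 and 6.52 CPM with PCI-34051 and 0.539, 4.07 and 3.78 CPM with Tubastatin A. Its groups overlap, and it was not called without the block (edgeR adjusted p = 0.274).

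The immediate early genes FOS and EGR1, which respond quickly to growth signals, differed widely among the PCI-34051 libraries. FOS had 11.3, 1.74 and 2.06 CPM with PCI-34051 and 17.9, 16.0 and 15.9 CPM with Tubastatin A and EGR1 had 12.9, 3.66 and 3.42 CPM with PCI-34051 and 17.5, 23.97 and 25.5 CPM with Tubastatin A. Replicate 1 of the PCI-34051 group was several times the other PCI-34051 libraries in both, and the groups still did not overlap (log2 fold changes 1.95 ± 0.36 and 1.82 ± 0.35). In the list 6 of 21 were higher and 2 lower, and 11 and 0 with GC offsets. KLF6 was higher by 0.52 and JUND lower by 0.40, where JUND turned to 0.027 with GC offsets. RAS-ERK output had 9 of 20 higher and 1 lower, but 4 higher without replicate 3, with DUSP5 (0.59), SPRY4 (0.50), HBEGF (0.46) and NRAS (0.46). YAP and TAZ targets had 6 of 20 higher and 2 lower (2 and 1 without replicate 3). ANKRD1 had 50.0, 35.6 and 35.7 CPM with PCI-34051 and 90.9, 70.7 and 67.0 CPM with Tubastatin A and AXL and CCN1 were higher by 0.36 and 0.35, CCN1 losing its call without replicate 3 (edgeR adjusted p = 0.13), and ARHGEF17 was lower by 0.52.

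TGF-β and BMP genes had 6 of 27 higher and 10 lower, but 4 and 5 with GC offsets, and 2 and 9 without replicate 3. LTBP3, which binds latent TGF-β in the matrix, had 493, 682 and 655 CPM with PCI-34051 and 228, 284 and 317 CPM with Tubastatin A (log2 fold change −1.14 ± 0.06, edgeR adjusted p = 7.23e-07). SMAD3, the signal transducer, had 879, 900.2 and 907 CPM with PCI-34051 and 549, 587 and 606 CPM with Tubastatin A, and SMAD7, the inhibitory SMAD, had 36.5, 38.8 and 33.6 CPM with PCI-34051 and 21.6, 23.1 and 25.5 CPM with Tubastatin A. BMP1 was lower by 0.62, and the 4 calls held with the offsets. VEGFA, an angiogenic growth factor induced by hypoxia, had 867, 1207 and 1126 CPM with PCI-34051 and 533, 624 and 685 CPM with Tubastatin A (log2 fold change −0.79 ± 0.07, edgeR adjusted p = 1.09e-05), although 9 of 18 hypoxia genes were higher and 2 lower (5 and 3 with GC offsets). EPAS1 (HIF-2α) was lower by 0.46, CA12 was higher by 0.58 and PLOD2 was higher by 0.46 but 0.13 with the offsets, no longer called. Growth factor and IGF binding genes had 9 of 26 higher and 2 lower. FGF5 had 12.4, 9.38 and 10.7 CPM with PCI-34051 and 26.7, 19.8 and 22.8 CPM with Tubastatin A and FGF1 had 2.37, 2.38 and 1.87 CPM with PCI-34051 and 9.86, 6.61 and 7.90 CPM with Tubastatin A, both without overlap, and MET, the receptor of hepatocyte growth factor, was higher by 0.55.

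In the Wnt and Notch pathways 4 of 25 were higher and 5 lower (2 and 4 without replicate 3, 8 and 3 with GC offsets). DKK3 and the Wnt antagonist SFRP1 were higher by 0.68 and 0.44, and WNT5A and NOTCH1 were lower by 0.67 and 0.55. WNT5A had 139, 108 and 112 CPM with PCI-34051 and 74.5, 70.9 and 79.2 CPM with Tubastatin A. Of 27 p53 targets 5 were higher and 10 lower, 1 and 6 with GC offsets, and 6 lower without replicate 3. GDF15, a stress-induced cytokine, had 529, 500.3 and 538 CPM with PCI-34051 and 327, 305 and 369 CPM with Tubastatin A, PLK3 was lower by 0.60, and PHLDA3 (−0.39) and PMAIP1 (0.47) lost their calls with the offsets.

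Matrix and adhesion genes showed no common direction but held single differences of small p. ITGA11, the collagen receptor chain of fibroblasts, had 165, 161 and 161 CPM with PCI-34051 and 55.7, 67.0 and 69.8 CPM with Tubastatin A (log2 fold change −1.34 ± 0.08, edgeR adjusted p = 8.11e-07). The fibronectin receptor chain ITGA4 had 35.4, 20.2 and 19.2 CPM with PCI-34051 and 61.1, 44.1 and 41.2 CPM with Tubastatin A, and the laminin and collagen receptor chains ITGA6 and ITGA1 were higher by 0.56 and 0.95. ITGA11 and ITGB2 were also called without the block. In the whole list 8 of 18 integrins were higher and 2 lower. Collagens had 4 of 25 higher and 10 lower, 5 and 5 with GC offsets, 4 and 3 in the 15-library fit and 1 and 1 without the block. COL12A1 had 115, 75.6 and 80.5 CPM with PCI-34051 and 211, 152 and 155 CPM with Tubastatin A, COL27A1 had 84.4, 192 and 163 CPM with PCI-34051 and 45.4, 79.4 and 79.8 CPM with Tubastatin A and COL6A1 had 234, 276 and 255 CPM with PCI-34051 and 149, 152 and 184 CPM with Tubastatin A. COL5A1 was lower by 0.90, and its libraries overlap because PCI-34051 replicate 1 was at 68.1 CPM.

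Matrix glycoproteins and proteoglycans had 11 of 33 higher and 8 lower, and 4 and 5 without replicate 3. FBN2 (fibrillin-2) had 92.7, 70.7 and 60.2 CPM with PCI-34051 and 171, 132 and 116 CPM with Tubastatin A, the proteoglycan VCAN was higher by 0.78, and AGRN and the laminin chain LAMA3 were lower by 0.63 and 0.70. Metalloproteinases and inhibitors had 7 of 32 higher and 10 lower, but 7 and 6 with GC offsets. The collagenase MMP1 had 78.8, 53.9 and 67.6 CPM with PCI-34051 and 53.5, 34.1 and 35.4 CPM with Tubastatin A, TIMP2 was lower by 0.44, and the sheddases ADAM10 and ADAM9 were higher by 0.60 and 0.48. The plasminogen activator and serpin list had 5 of 12 higher and 1 lower, but 5 and 4 with GC offsets, with SERPINB7 above, SERPINB5 (0.84) and SERPINB8 (0.43) higher and the collagen chaperone SERPINH1 lower by 0.44. Tetraspanins had 7 of 20 higher and 2 lower (11 and 1 with GC offsets). CD9 had 4.69, 3.15 and 3.55 CPM with PCI-34051 and 9.75, 10.1 and 9.54 CPM with Tubastatin A, TSPAN12, TSPAN5 and TSPAN3 were higher by 1.47, 0.56 and 0.34, and the CD9 libraries did not overlap.

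Ephrins, semaphorins and plexins, guidance molecules of axons, had 16 of 56 higher and 13 lower, 20 and 6 with GC offsets. SEMA5A had 14.4, 11.4 and 12.2 CPM with PCI-34051 and 45.0, 39.7 and 42.7 CPM with Tubastatin A (log2 fold change 1.74 ± 0.09, edgeR adjusted p = 6.66e-07). SEMA3C was higher by 0.90 and the receptors PLXNA3 and PLXNB1 were lower by 0.86 and 0.70. Among cadherins and protocadherins 18 of 36 were lower and 7 higher, with 13 and 8 under GC offsets, 5 and 5 in the 15-library fit and 0 and 1 without the block. CDH11, a mesenchymal cadherin, had 50.7, 34.6 and 33.0 CPM with PCI-34051 and 73.6, 61.1 and 62.2 CPM with Tubastatin A and PCDH18 had 0.413, 0.193 and 0.258 CPM with PCI-34051 and 2.37, 1.59 and 1.47 CPM with Tubastatin A, both higher. PCDHGA8 and PCDHGA11 were lower by 1.05 and 1.13, but members of this cluster share their last exons, so reads may be divided among them. In the actin cytoskeleton and focal adhesion list 10 of 34 were called in each direction, 15 and 3 with GC offsets, and 5 and 4 without replicate 3. The non-muscle myosin MYH10 had 52.6, 55.7 and 55.2 CPM with PCI-34051 and 82.2, 78.5 and 84.8 CPM with Tubastatin A, CNN3 and TPM3 were higher by 0.64 and 0.35, and PDLIM7 (−0.35) lost its call with the offsets (−0.015).

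Of 30 HOX genes, which set position along the body axis, none was higher and 7 were lower, but with GC offsets 1 was higher and 2 lower, and without replicate 2 these counts were 1 and 4. HOXA9 had 25.9, 33.6 and 32.5 CPM with PCI-34051 and 18.6, 16.3 and 18.4 CPM with Tubastatin A and kept its call, whereas HOXD9, HOXC13 and HOXA4 (log2 fold changes −0.76, −0.70 and −0.54) lost theirs with the offsets, and HOXC13 and HOXA4 also without replicate 1. Regulators of the epithelial-mesenchymal transition had 5 of 13 higher and 3 lower (4 and 4 with GC offsets). TCF4 had 22.7, 21.5 and 18.1 CPM with PCI-34051 and 44.2, 38.6 and 35.3 CPM with Tubastatin A, ZEB1 was higher by 0.60 and TWIST2 lower by 0.54. Of 10 keratins KRT80 and KRT15 were higher and KRT81 lower. KRT80 had 16.3, 18.3 and 14.1 CPM with PCI-34051 and 29.5, 31.4 and 34.2 CPM with Tubastatin A and KRT15 had 7.79, 8.16 and 7.55 CPM with PCI-34051 and 11.5, 11.96 and 13.5 CPM with Tubastatin A, while KRT81 (−0.24) turned to 0.056 with GC offsets. In the list of MEF2 factors and muscle genes, where class IIa deacetylases act as repressors, 3 of 5 were higher and 2 lower. TNNT1, a slow skeletal troponin, had 12.4, 12.7 and 13.6 CPM with PCI-34051 and 28.5, 29.6 and 31.2 CPM with Tubastatin A (log2 fold change 1.21 ± 0.09, edgeR adjusted p = 6.53e-06), and embryonic myosin MYH3 was lower by 0.65. MEF2A (0.24) and MEF2C (0.80) lost their calls with GC offsets and in 2 of the 3 fits without a replicate.

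Among Polycomb and DNA methylation genes 9 of 18 were higher and 5 lower (6 and 5 with GC offsets). EZH2, the PRC2 methyltransferase of dividing cells, had 25.7, 24.6 and 23.2 CPM with PCI-34051 and 40.9, 38.3 and 34.9 CPM with Tubastatin A and its paralogue EZH1 had 42.2, 57.0 and 57.9 CPM with PCI-34051 and 31.7, 40.8 and 38.8 CPM with Tubastatin A, so they differed in opposite directions (0.63 and −0.49). JARID2 and DNMT3A were lower by 0.54 and 0.63. Of 405 numbered zinc finger genes 53 were higher and 74 lower (median −0.032), with 33 higher without replicate 2, 47 lower without replicate 3, and 24 higher and 62 lower with GC offsets. ZNF469 had 34.7, 81.3 and 64.7 CPM with PCI-34051 and 12.1, 24.8 and 29.1 CPM with Tubastatin A and ZNF785 was lower by 1.03. Of 204 solute carriers 52 were higher and 35 lower (median 0.037, with 46 and 23 under GC offsets). The bicarbonate transporter SLC4A8 had 12.1, 10.9 and 8.58 CPM with PCI-34051 and 37.2, 37.5 and 35.7 CPM with Tubastatin A and the sugar phosphate carrier SLC37A2 had 77.0, 91.0 and 96.7 CPM with PCI-34051 and 32.7, 41.0 and 46.1 CPM with Tubastatin A. Of 75 ion channels 24 were higher and 12 lower, with the neuronal sodium channel SCN8A at 24.6, 32.7 and 31.4 CPM with PCI-34051 and 48.5, 57.2 and 53.5 CPM with Tubastatin A and the heat-gated channel TRPV1 lower by 1.12. For solute carriers these shares (25.5 and 17.2%) were near the 22.1 and 18.3% of all genes. Zinc finger genes had 13.1% higher, below all genes, and 18.3% lower, the same as all genes. Ion channels had 32.0% higher, above all genes, and 16.0% lower, near all genes.

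Libraries of edited lines on the same inhibitors for 2 days gave a second view that shares no library with the WT comparison. In it 6CD1m and 6CD2m cells, in which the first or the second catalytic domain of KDAC6 is inactivated, on Tubastatin A were set against 8CDm cells, in which KDAC8 is inactivated, on PCI-34051, so line, editing and inhibitor change together. Of 18902 genes 6107 were called there (32.3%), 2906 higher (15.4%) and 3201 lower (16.9%). Of the 6945 genes called in WT cells and tested in both, 40.8% had the same direction, against 43.5% of all 17079 genes tested in both. With 6CD2m alone the share was 55.3%, above the 52.7% of all genes, and with 6CD1m alone it was 33.7%, below 38.9%, so the order of the shares turned with the line. The lists differed in how they stood there. DNA replication genes had 23 of 36 higher and none lower, clustered histones 22 of 47 higher and 4 lower and tubulins 6 of 16 higher and none lower. Mitosis genes had 5 of 28 higher with a median of −0.0023, and cholesterol genes 6 of 25 higher and 1 lower. Cytosolic ribosomal proteins had 1 of 83 higher and 58 lower, and neuronal genes 8 of 23 higher and 5 lower (median 0.096). KIF5C was higher in both comparisons (0.65 in the edited lines, edgeR adjusted p = 0.000424), as was SLC4A8 (1.95). ITGB2 and EFR3B were also higher in both (1.47 and 1.11, edgeR adjusted p = 0.000104 and 0.0101). ITGB2 averaged 1.95 CPM in 6CD1m, 23.2 in 6CD2m and 2.42 in 8CDm, and EFR3B 3.44, 1.29 and 0.968. NOVA2, CNTN1, SERPINB7 and NELL2 were lower there (−1.04, −1.56, −2.62 and −2.29). CES1, VAT1L and OTULINL were not called there, at 0.013, 0.058 and −0.081.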

How the data were processed

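RNA of HT1080 cells was sequenced as paired-end reads after rRNA depletion. The values are expected counts per gene that the authors made and deposited. The submitters' processing notes name Trimmomatic 0.39, Bowtie2 2.4.5, RSEM 1.3.3, DESeq2 1.38.2 and the build GRCh38, while the annotation and the strand setting are not given in the sources used here. Of the values above 0, 21.8% were not whole, and all were rounded. The table held 60675 genes, of which 57055 matched GENCODE 29 for biotype and GC content. Genes passing filterByExpr were fitted with edgeR 4.0.16 in R 4.3.3 (TMM scaling, quasi-likelihood test, adjusted p below 0.05), with the replicate number as a block and the 6 WT libraries alone. The biological coefficient of variation was 7.67%, with 2 residual degrees of freedom and a prior of 10.2, so that most of the information on spread is shared between genes.

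Replicate numbers come from the labels. After group means were removed, libraries of the same number correlated at r = 0.603, 0.297 and 0.248. Libraries of different numbers correlated at −0.488 to 0.345, with an average of −0.179. Removing group means makes deviations cancel within a group, which pulls that average to the opposite sign of the same-number values. The average is therefore no separate sign of pairing. Of the same-number values, only 0.603 lay above every value for different numbers. The numbers were still taken to pair the libraries, and the block rests on that choice. What a number stands for (a culture, a day) is not given in the sources used here. Within groups r was 0.966 to 0.987, and no libraries agreed within sampling noise. GC offsets were a smooth curve of each library against GC content (spline with 6 degrees of freedom). Scripts were tested on simulated data. DESeq2 1.42.0 was an alternative.

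The gene lists and the comparison were chosen with earlier results of these data known. Genes named are HDAC1 to HDAC11, the 10 protein-coding genes that differed most each way (called, average log2 CPM of at least 1, libraries not overlapping), and in each list up to 4 called members of smallest p, or up to 2 of highest level where none was called, and 2 in long lists. Other genes are said to be chosen after their values were seen, and VIM and the other cell markers serve as a check of the cells. Promoters are RefSeq sequences on GRCh38.p14, matched by symbol. Some genes that this rule names are not reported here.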

Additional observations from a re-analysis of the deposited data

How the results depend on the processing

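The count of 6964 genes rests on the replicate block: with no replicate block 303 genes passed, with all 15 libraries in the fit 951 passed with the replicate block and 1851 with no replicate block, and with GC offsets with no replicate block, an alternative chosen after seeing the data, 405 passed. A block of number 1 against 2 and 3, also chosen after seeing the data, gave 7408. A false discovery rate of 0.001 left 2015 genes and a log2 fold change of at least 1 left 755. Leaving out a replicate number gave 5175 to 6158 genes, the fewest without replicate 3. DESeq2 with the block called 5256 (5247 shared), and the other scalings, filters and gene sets gave 6175 to 7307. Upper-quartile scaling moved the share of higher calls from 54.8 to 46.7% and the median of all genes from −0.0056 to −0.052. Of 260 named genes called in the main fit, 192 did not pass without the block and none changed direction, and 15 did not pass and 3 reversed with GC offsets. The reversed genes were HDAC9 (−0.0070 with GC offsets and −0.0088 with no block as well), JUND (0.027 and 0.011) and KRT81 (0.056 and 0.041). The cause of these changes was not tested. For the edited lines, the share of genes with the same direction as in WT cells was 40.8%, 41.1% with the replicate block, 55.3% with 6CD2m alone and 33.7% with 6CD1m alone, against 43.5, 43.6, 52.7 and 38.9% of all genes tested. Genes under about 1 CPM rest on fewer than 20 reads a library, and GC content moved with the inhibitor in all 3 pairs, so that calls of small size on genes of extreme GC content are the least firm. The block leaves 2 residual degrees of freedom.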

Other observations

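Most antisense and lincRNA genes were covered by no list, and few of them were higher with Tubastatin A. Of 1117 antisense genes 18 were higher and 223 lower (median log2 fold change −0.32), and of 775 lincRNA genes 35 were higher and 127 lower (median −0.22), where 3677 of 13140 protein-coding genes were higher and 2374 lower (median 0.061), and 22.1% of all genes were higher and 18.3% lower. The shares of lower calls were near that of all genes. The strand setting of the counting is not given, so reads of an antisense gene and of its partner may not be told apart, and whether these shares follow GC content or level was not tested. The genes that follow were chosen after their values were seen, with adjusted p from edgeR's quasi-likelihood test. LINC00707 had 11.6, 7.39 and 8.19 CPM with PCI-34051 and 48.9, 34.6 and 38.3 CPM with Tubastatin A (log2 fold change 2.17 ± 0.10, edgeR adjusted p = 1.7e-07), with no overlap, and was also called without the block. FOXD1-AS1 had 0.309, 0 and 0 CPM with PCI-34051 and 5.06, 4.58 and 1.35 CPM with Tubastatin A, from no more than 6 reads in any PCI-34051 library. MIR34AHG, the host gene of the p53-induced miR-34a, had 17.4, 30.6 and 22.7 CPM with PCI-34051 and 7.06, 11.4 and 8.69 CPM with Tubastatin A and was lower by 1.37 (edgeR adjusted p = 6.63e-06). NEAT1, the scaffold RNA of nuclear paraspeckles, had 4914, 8244 and 8098 CPM with PCI-34051 and 2899, 5085 and 4658 CPM with Tubastatin A, lower in each pair although the groups overlap across pairs (log2 fold change −0.75 ± 0.06, edgeR adjusted p = 5.76e-06). The let-7b host gene MIRLET7BHG was lower by 0.97. These calls were kept with GC offsets, at 2.11, 4.80, −1.21, −0.86 and −0.66 on the log2 scale.

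Of 37 small structural RNA genes tested 4 were higher and 7 lower. RN7SL3, a signal recognition particle RNA with many near-identical copies, had 114, 172 and 142 CPM with PCI-34051 and 72.7, 69.2 and 87.4 CPM with Tubastatin A, and the Cajal body RNA SCARNA2 had 52.0, 109 and 93.0 CPM with PCI-34051 and 30.5, 64.2 and 67.5 CPM with Tubastatin A.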
